A study of Mus musculus with 6 samples.

Results

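The normal lung of a newborn mouse was described by its microRNAs (miRNAs), as read by RT-PCR in the 3 room air samples of a series of 6. These samples are the controls of a hyperoxia study: mice less than 12 hours old were kept in room air for 7 days, beside others in 95% oxygen, and their dams moved daily between both atmospheres. At day 7 the lung vessels were flushed with PBS through the pulmonary artery and the right lung was frozen. Its total RNA was reverse transcribed with Megaplex primer sets A and B and pre-amplified for 12 cycles. The labels name neither strain, sex nor genotype, mention no transgene, and do not say that the 3 samples came from separate animals, so the SDs below measure the spread between samples, which may be partly technical. All assays were kept, none being chosen by its value, and there were 375 miRNA assays on each of 2 cards of 384 wells. Levels were ranked within a card only. By the prefix of their names, the first card had 335 mouse and 40 rat assays. The second had 261 mouse, 38 rat and 76 human ones. The prefix is mostly left out below.

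A miRNA is a short RNA that guides Argonaute proteins to messenger RNAs, which are then repressed. Pairing rests mainly on the seed, bases 2 to 8 of the mature strand, so miRNAs with a shared seed form a family with overlapping targets. Many are made from clustered hairpins on 1 transcript, and each hairpin has a 5p and a 3p strand, of which usually one is kept. In the lung, miR-126 is a product of endothelium, the miR-200 family of epithelium, miR-143 and miR-145 of smooth muscle, and miR-142, miR-150 and miR-223 of blood-derived cells. The miR-17 to miR-92a cluster is required for normal growth of the embryonic lung.

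The measurement is the threshold cycle (Ct), the number of PCR cycles needed for a well to reach a set fluorescence. A low Ct means much RNA, and 1 cycle is a factor of 2 at full efficiency. Assays differ in efficiency, so the order between different miRNAs is approximate. An assay with a Ct under 35 in every sample used was called abundant at a mean Ct under 20, moderate from 20 to under 26, and rare from 26 to under 35. Assays under 35 in only some samples were called partly detected, those at 35 or later, or blank, in all samples late only, and those at a Ct of 40 in every sample never amplified. The first card (set A) was described from room air 1, 2 and 3. The second card (set B) was described from room air 2 and 3, because 308 of the 309 values that amplified there in both room air 1 and hyperoxia 2 were identical.

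The sequences below are those of the miRNAs on which the account of the first card turns, the most abundant ones and the relatives set beside them. They are mature mouse sequences from RefSeq (build GRCm38.p6), written 5′ to 3′ with the seed in capitals.
miR-126-3p: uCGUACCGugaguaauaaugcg
miR-24: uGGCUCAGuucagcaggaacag
miR-30c: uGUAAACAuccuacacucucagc
miR-30a: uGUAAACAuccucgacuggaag
miR-19b: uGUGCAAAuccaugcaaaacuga
miR-17: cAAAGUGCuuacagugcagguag
miR-20a: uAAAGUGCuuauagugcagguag
miR-106a: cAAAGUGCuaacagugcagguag
miR-16: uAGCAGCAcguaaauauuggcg
miR-195: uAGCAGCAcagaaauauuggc
miR-26a: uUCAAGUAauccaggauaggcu
miR-146a: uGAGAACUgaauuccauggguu
miR-200c: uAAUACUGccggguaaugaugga
miR-200b: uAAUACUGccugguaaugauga
let-7i: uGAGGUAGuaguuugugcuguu
miR-218: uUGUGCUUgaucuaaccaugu
miR-211: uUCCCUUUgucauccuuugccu
miR-204: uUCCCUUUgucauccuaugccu
miR-367: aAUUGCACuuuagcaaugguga
miR-92a: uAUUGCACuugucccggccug
miR-465a-5p: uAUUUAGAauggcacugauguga
miR-465b-5p: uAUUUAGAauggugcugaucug

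On the first card, 294 of 375 miRNA assays (78.4%) had a Ct under 35 in all 3 room air samples. Of the 375, 100 were abundant (26.7%), 121 moderate (32.3%) and 73 rare (19.5%). Another 41 were partly detected (10.9%), 3 were late only, and 37 never amplified (9.87%). Mean Ct values of the detected assays ran from 11.79 to 33.10 with a median of 22.68. The second card held less: 270 of 375 assays (72.0%) were detected in both samples, 27 as abundant (7.20%), 119 as moderate (31.7%) and 124 as rare (33.1%). There, 27 were partly detected, 6 were late only and 72 never amplified (19.2%), where a blank well counted as not detected (2 blank wells in each sample, with miR-1936 blank in both and placed with the late only assays). The median of the detected assays was 25.66 in a range from 9.99 to 34.61. Assays cut by the edges at 20 and 26 lay on a continuous slope: on the first card 27 lay within 0.5 cycles of 20 and 22 within 0.5 of 26.

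**Figure D1:**
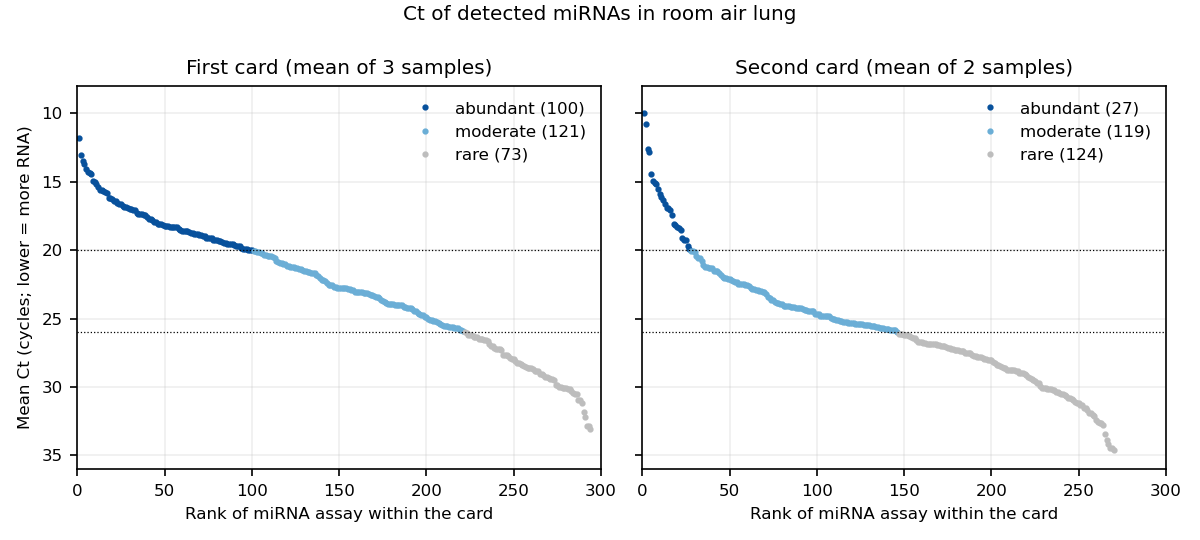
Mean Ct in cycles of each miRNA detected in every sample used, against its rank within its card, with the Ct axis turned so that more RNA is higher and dotted lines at the band edges of 20 and 26. The first card (mean of 3 room air samples) holds 100 abundant miRNAs and the second (mean of 2) holds 27, and neither curve has a gap at the edges.

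The assays nearest the edge of 20 show how close neighbours were. On the first card, miR-532-5p (19.996 ± 0.32, SD, n = 3), miR-497 (19.96 ± 0.30), miR-320 (19.95 ± 0.48), miR-139-5p (19.91 ± 0.60) and miR-324-5p (19.88 ± 2.66) lay just under it. The nearest above were miR-186 (20.04 ± 1.21), miR-708 (20.07 ± 0.83), miR-335-3p (20.12 ± 0.61), miR-503 (20.16 ± 0.47) and miR-532-3p (20.23 ± 0.21). Most of these SDs were larger than the distance to the edge. The strands of miR-532 fell on opposite sides, 0.23 ± 0.12 cycles apart (SD of the difference, n = 3). On the other card, miR-24-2# (19.88 ± 0.37, SD, n = 2), miR-467a (19.68 ± 0.06), miR-146b (19.27 ± 0.30), miR-374-5p (19.23 ± 0.15) and miR-322# (19.08 ± 0.33) stood just under 20. Just above it were miR-322 (20.06 ± 0.40), miR-93# (20.08 ± 0.10), miR-324-3p (20.14 ± 0.41), miR-805 (20.40 ± 0.60) and miR-690 (20.55 ± 0.82). The # marks the strand listed as the minor one of its hairpin.

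Per sample, 317, 307 and 311 first-card assays were under a Ct of 35 in room air 1, 2 and 3, and 280 and 287 second-card assays in room air 2 and 3. The control RNA U6 had a Ct of 9.36 to 10.26 on the first card and of 9.52 to 9.65 on the second, though wells of it held identical values within a sample and so were not all separate readings. Other control RNAs were less steady on the second card, where Y1 read 24.32 and 21.21 in room air 2 and 3 and snoRNA202 15.33 and 14.28. On the first card their SDs ran from 0.14 cycles for snoRNA202 to 0.92 for Y1. The plant miRNA ath-miR159a, which mouse lung lacks, stood at 40 in all samples and on both cards. Room air 1 read lower than the others: over the 294 detected assays its Ct was below that of room air 2 by a median of 0.41 cycles and below room air 3 by 0.52, and it held the lowest value for 197 of them. Across assays, which are not independent replicates, Ct values correlated by 0.899 between room air 1 and 2, 0.890 between 1 and 3, and 0.966 between 2 and 3 (Pearson). The second-card value for room air 2 and 3 was 0.939.

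Most assays were steady between samples. The median SD on the first card was 0.40 cycles among abundant, 0.46 among moderate and 0.68 among rare miRNAs (n = 3). The range over the 3 samples passed 1 cycle for 28 of 100 abundant, 49 of 121 moderate and 49 of 73 rare assays, so the rare ones were the least exact. By raw Ct, the 5 steadiest abundant miRNAs, named after their values were seen, were miR-106b, let-7g, miR-21, miR-99b and miR-143, with SDs from 0.04 to 0.11 cycles. miR-21, a miRNA that rises in many injured and fibrotic tissues, had Ct values of 17.48, 17.37 and 17.32. Its 3 raw values thus agreed to within a fraction of a cycle. Yet the mean Ct over the 294 detected assays was 22.25, 22.73 and 22.87, lowest in room air 1. There miR-21 had its highest Ct, so relative to the other assays its level was less steady.

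A few first-card assays went against this, and a stretch of 1 plate row held many of them. In row G, wells 12 to 24, the value of room air 1 lay more than 1.5 cycles from both other samples in 9 of the 10 detected assays, against 0 of 11 in wells 1 to 11 and 9 of 273 in all other rows (a limit set after the values were seen). The median SD was 2.73 cycles in that stretch and 0.46 outside row G. The miRNAs there include miR-302a, miR-302c, miR-302d, miR-320, miR-323-3p, miR-324-5p, miR-328, miR-329 and both strands of miR-331. For miR-331-3p, for example, room air 1 read 31.71 and the others 18.07 and 18.43. miR-328 read 21.63 against 17.99 and 17.77. For miR-302d, however, the sample furthest apart was room air 2, at 18.13 against 31.24 in room air 1 and 29.62 in room air 3. miR-320 was steady, with an SD of 0.48 cycles. What sets these wells apart was not tested.

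The 5 first-card assays with the largest SD were miR-499, miR-331-3p, miR-302d, miR-302a and miR-377. miR-499, a miRNA encoded in a cardiac and slow muscle myosin gene, had a Ct of 11.81 in room air 1 and of 32.01 and 33.25 in room air 2 and 3. miR-377 read 18.29, 29.58 and 28.92. Both are placed by their mean in the moderate band, at 25.69 and 25.59, where no sample of either lay; without room air 1 both would be rare. On the second card the largest SDs were those of miR-290-5p (33.01 and 22.48 in room air 2 and 3), miR-1941-5p (22.36 and 32.17), miR-432 (28.90 and 34.88), miR-196a# (27.89 and 32.46) and miR-501 (25.27 and 29.75). Plate row K of that card had the largest row median of the SD, 1.25 cycles.

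**Figure D2:**
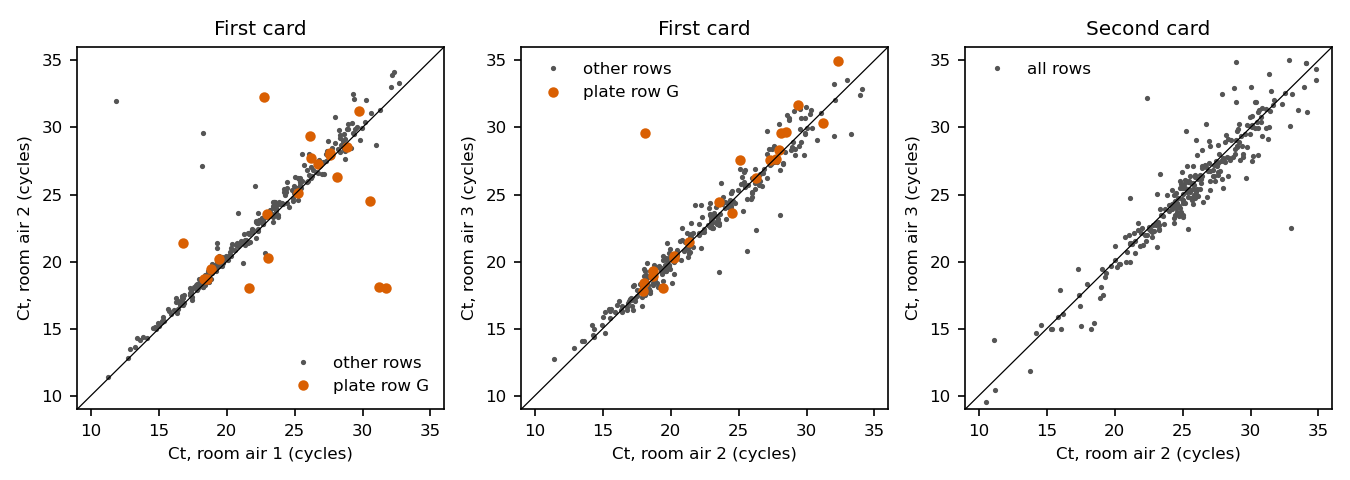
Ct in cycles of each miRNA detected in all samples used, in one room air sample against another, with the line of equal values and plate row G of the first card in orange. Room air 1 scatters more around the line (r = 0.899 with room air 2) than room air 2 and 3 between themselves (r = 0.966), and many of its outlying points lie in row G.

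The endothelial miRNA miR-126-3p, which keeps vessels intact by restraining inhibitors of VEGF signalling, had the lowest Ct of the first card. Its values were 11.30, 11.38 and 12.70 in room air 1, 2 and 3, a mean of 11.79 ± 0.79 (SD, n = 3). It comes from chr2:26591402-26591423, plus strand. All 3 samples read it earlier than any sample read miR-24, the next in rank, at 12.77, 12.84 and 13.55 (mean 13.05 ± 0.43), one of whose 2 loci is chr8:84208875-84208896, plus strand. This was the only step among the 25 leading assays at which neighbours did not overlap: the other 24 overlapped the next in rank. The 25 spanned 4.86 cycles from miR-126-3p to miR-496. When each sample was ranked alone, 22, 25 and 22 of them stayed among its leading 25.

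The next ranks were close together. miR-30c, of a family that restrains mesenchymal transition, read 12.85, 13.46 and 14.05, and miR-30b 13.40, 14.34 and 14.38. miR-19b, a member of the miR-17 to miR-92a cluster, read 13.28, 13.64 and 14.08. Room air 1 held the lowest and room air 3 the highest Ct of all 3, as for miR-126-3p and miR-24, and neighbours overlapped. miR-145, of smooth muscle, followed with 14.11, 14.32 and 14.51 and miR-16, a brake on the cell cycle, with 13.62, 14.18 and 15.24. miR-211 came next at 13.87, 14.38 and 14.96. Those 3 had means of 14.31 to 14.40 and could not be put in order.

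Below them stood miR-26a (14.95 ± 0.26, SD, n = 3), the minor strand miR-126-5p (15.03 ± 0.26), miR-218 (15.15 ± 0.65), miR-484 (15.38 ± 0.80), miR-30a (15.59 ± 0.19) and miR-146a (15.62 ± 0.76). miR-146a damps signalling by Toll-like receptors. Then came miR-191 (15.70 ± 0.55), the X-linked miR-106a (15.76 ± 0.62), miR-17 (15.81 ± 0.47), miR-20a (16.16 ± 0.40), miR-367 (16.17 ± 0.38), miR-150 (16.25 ± 0.48) and miR-99b (16.37 ± 0.08). The list ended with miR-92a (16.40 ± 0.30), miR-200c (16.54 ± 0.46), let-7i (16.64 ± 0.24) and miR-496 (16.65 ± 0.12). Of the 25, 23 belong to a family or marker list used here, as do 223 of all 375 first-card assays (59.5%), and the lists were drawn up with earlier results known. The miR-17 to miR-92a cluster with its paralogs gave 5 and the miR-30 family 3. miR-484 and miR-191 belong to none.

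**Figure D3:**
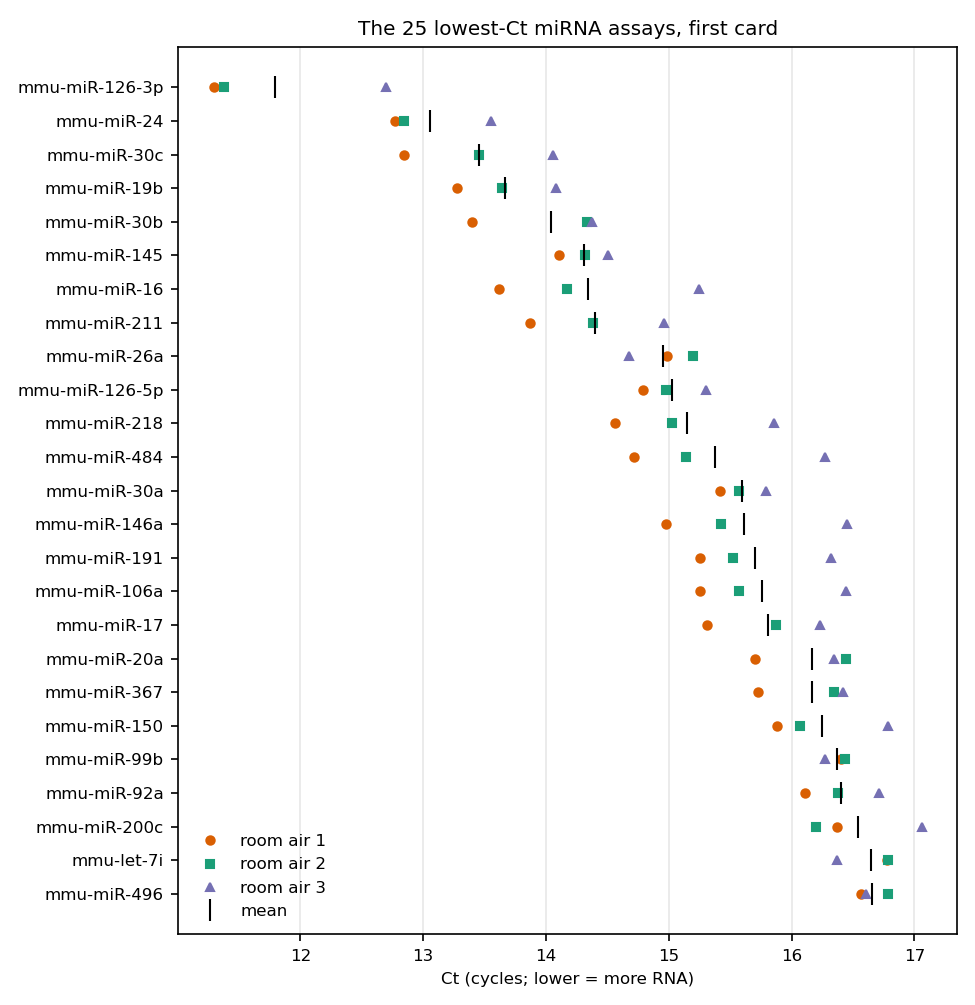
Ct in cycles of the 25 first-card miRNAs with the lowest mean, 1 symbol per room air sample and a bar at the mean (n = 3). miR-126-3p stands alone at 11.79, and from miR-24 at 13.05 to miR-496 at 16.65 each miRNA overlaps the next.

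Across whole families, levels were read against the 100 abundant among 375 (26.7%) and the median of 22.68 of the card. These lists are descriptions, not tests. Each list median here and below was taken over the members detected in every sample used, and so leaves out the undetected ones. let-7, which promotes differentiation and silences growth genes such as Hmga2, had 7 of 9 members abundant and 2 moderate, from let-7i at 16.64 ± 0.24 to miR-98 at 21.21 ± 2.21 (SD, n = 3), with a median of 18.63. miR-98 read 20.81, 23.59 and 19.23, the widest of the family. All 9 members have the seed GAGGUAG. In miR-30 all 5 assays were abundant, from miR-30c at 13.45 to miR-30d at 17.92. In the miR-99/100 and miR-125 families, which are co-transcribed with let-7, all 5 were abundant too, within 2.44 cycles from miR-99b at 16.37 to miR-99a at 18.81.

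The miR-17 to miR-92a cluster and its paralogs, which drive proliferation of lung progenitors, had 9 of 13 first-card members abundant, with a median of 18.65. The cluster itself lies on chr14:115043671-115044506, and its 6 mature miRNAs ran from miR-19b at 13.67 through miR-17, miR-20a, miR-92a and miR-19a to miR-18a at 22.38 ± 0.08 (SD, n = 3). Assays of this transcript thus lay 8.72 cycles apart, with miR-19b and miR-92a having a copy on the X chromosome as well. Its X-linked copy at chrX:52741693-52742567 spread further. There miR-106a stood at 15.76 and miR-20b at 19.11, while miR-363 read 28.37, 28.17 and 28.29 and miR-18b was at 40 in all 3 samples. miR-17 and miR-106a share 22 of 23 bases and differed by 0.05 cycles, and miR-20a, which matches miR-17 at 21 of 23, by 0.36.

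The miR-15/16 family, which holds cells in G1, had 5 of 7 members abundant. miR-16 led at 14.35 ± 0.83 (SD, n = 3), and miR-195, which matches it at 19 of 21 positions compared, stood at 16.83 ± 0.48. miR-322, known for muscle and endothelial differentiation, was the last at 28.72, 28.25 and 27.32. On the second card an assay of the same name read 20.34 and 19.78. The miR-29 family, which represses collagens and other matrix genes, was spread widely for so small a family: miR-29a read 18.37, 18.67 and 18.24, miR-29c 22.69, 22.78 and 22.72, and miR-29b 26.19, 26.21 and 25.42. None of these ranges overlapped, so the order a, c, b held in every sample.

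Of the clusters that hold miR-23, miR-24 and miR-27, miR-24 was lowest at 13.05, both miR-27 assays lay near 19 (19.36 and 19.47) and miR-23a was highest at 23.16 ± 0.77 (SD, n = 3). miR-26a, which regulates smooth muscle differentiation, read 14.98, 15.20 and 14.68, and miR-101a, a repressor of Ezh2, was the highest in its list at 20.50 ± 0.35. The list of the miR-130 and miR-148 families had 4 of 7 abundant, from miR-130a at 17.43 ± 0.11 to miR-148b at 23.07 ± 0.39. miR-181a, known from lymphocytes, stood at 17.09 ± 0.40 and miR-181c at 21.70 ± 0.64. Of the miRNAs inside Hox clusters, miR-10a was abundant at 19.35 ± 0.16, while miR-196b was nearly the last of the card at 32.88 ± 0.75. miR-449a, a product of multiciliated cells, read 17.78, 18.19 and 18.98, and its relative miR-34c 21.45, 21.64 and 21.10. Second-card members of that list ran from miR-449b at 24.26 to miR-34b at 27.75, while the first-card assay of miR-449b read 30.87 in room air 1 and 40 in both others.

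RefSeq sequences matched 254 of the 375 first-card assays and 93 of the second card. The 85 abundant miRNAs with a sequence held 56 seeds, and 14 of these seeds, each present in at least 2 abundant miRNAs, took in 43 of the 85. A seed shared with any other first-card assay was held by 54 of the 85 abundant miRNAs, by 16 of the 48 rare ones with a sequence and by 96 of all 254 (37.8%), a difference that was not tested. Examples beside let-7 are AAAGUGC, in 6 abundant miRNAs of 6, and AAUACUG in miR-200c, miR-200b and miR-429, which lay within 0.88 cycles. A shared seed did not fix the level: of 33 seeds held by at least 2 first-card assays, 10 spanned over 5 cycles between their lowest and highest detected member, and the median span was 3.75 cycles. The widest was GUAAACA, where miR-30c and the neural miR-384-5p, with 27.75, were 14.30 cycles apart. Base composition and genome position were not compared between the bands, since only 43.2% of the never amplified assays had a sequence against 85.0% of the abundant ones.

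The cell type lists were led by the main tissues of the lung. The lists hold no miRNA of the lung alone, so they describe cell types of the labelled tissue and cannot show that it is lung. In bulk tissue, fewer cells of a type and less RNA per cell cannot be told apart. All 4 endothelial assays were abundant, with a median of 16.21, from miR-126-3p to miR-221 at 19.65 ± 0.28 (SD, n = 3), a miRNA that limits Kit. Epithelial assays, whose miR-200 members hold off Zeb factors, were abundant in 5 of 7, with a median of 17.56. miR-200c read 16.37, 16.20 and 17.06 and miR-200b 16.72, 17.40 and 17.03. The hairpins of miR-200b, miR-429 and miR-200a lie together at chr4:156053905-156055750, and their 3 assays stood within 0.51 cycles of each other. miR-205, of basal and squamous epithelium, was the lowest-level epithelial assay at 25.17, 25.32 and 23.76.

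Smooth muscle and mesenchymal assays were abundant in 4 of 5 (median 16.96), from miR-145 at 14.31 to miR-199a-5p at 23.51 ± 0.25 (SD, n = 3). The other strand of that hairpin, miR-199a-3p, stood at 16.75. The second-card assays of this list stood later, with 1 of 3 abundant and a median of 22.84. The human-named miR-143 assay there read 23.18 and 22.96, against 16.89, 16.92 and 17.09 by the mouse-named one on the first card. Leukocyte assays were abundant in 6 of 9 (median 18.62), from miR-146a at 15.62 to miR-147, which macrophages raise on Toll-like receptor stimulation, at 29.40, 32.10 and 32.06. miR-150, of mature lymphocytes, read 15.88, 16.07 and 16.79. miR-223, of neutrophils and macrophages, read 17.44, 17.95 and 18.44. The leukocyte list thus covered 15.57 cycles. The erythroid miRNAs miR-486 (20.58 ± 0.67) and miR-451 (21.20 ± 1.55) were moderate in these perfused lungs. miR-451 read 22.99 in room air 1 against 20.42 and 20.20 in the others.

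Lists of other organs stood lower by the medians of their detected members. Striated muscle assays had a median of 24.76: miR-133a was abundant at 18.26, 18.08 and 19.29, miR-1 read 24.61, 24.05 and 23.17, and the cardiac miR-208b closed the list at 30.93 ± 0.28 (SD, n = 3). Mouse pulmonary veins carry a sleeve of cardiac muscle, and whether it is a source of these values was not tested. Neural assays had a median of 27.28, and miR-124, the main miRNA of neurons, was seen in room air 1 alone, at 30.61. miR-129-5p was the highest detected at 30.55. Of the 10 neural assays 2 were abundant, miR-132 at 19.10, 19.40 and 20.12, and miR-218, which held rank 11 of the card at 14.56, 15.03 and 15.85. miR-218 is encoded in introns of Slit2 and Slit3. The second-card neural assay, miR-212, read 21.91 and 22.10 in room air 2 and 3. miR-122, of hepatocytes, read 24.95, 25.12 and 26.90. Of the gut and kidney list, miR-192 stood at 21.70 and miR-215, with the same seed, at 29.11. Of 3 pancreatic assays, miR-216b was rare at 29.84, miR-217 was at 40 in room air 1 and at 32.45 and 32.63 in the others, and miR-216a never amplified.

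**Figure D4:**
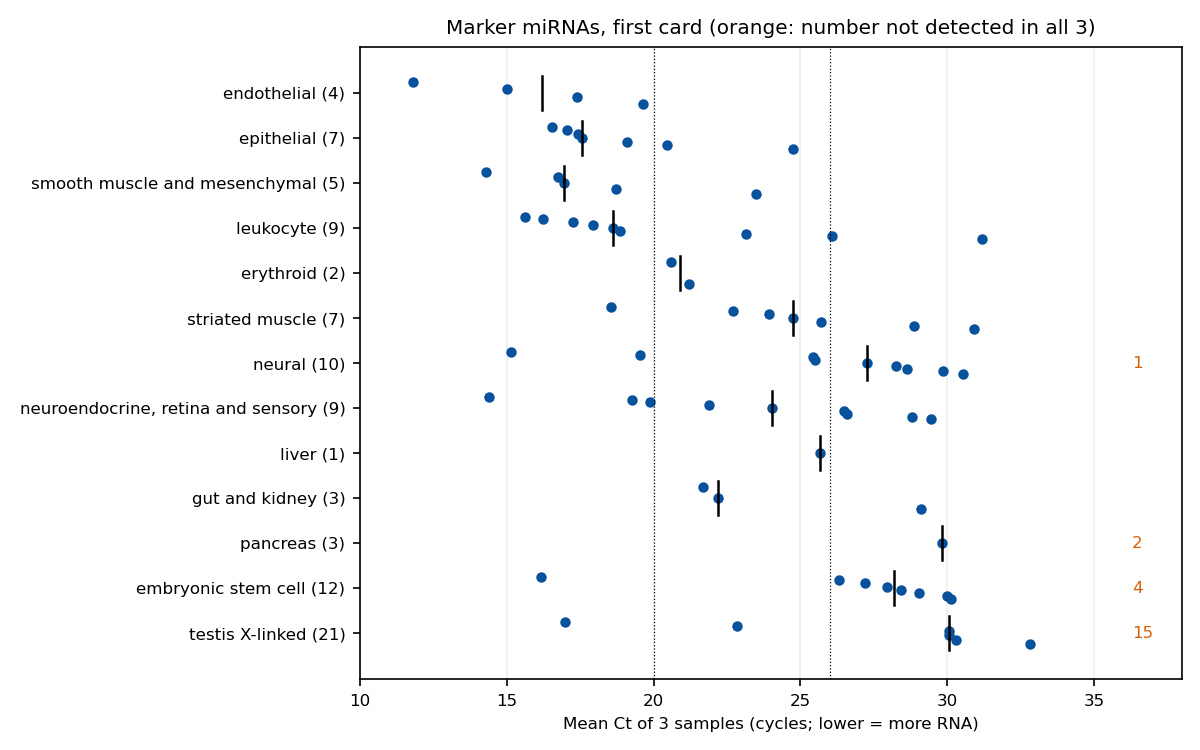
Mean Ct in cycles (3 room air samples) of each first-card marker miRNA by list, with the number of assays in brackets and dotted lines at 20 and 26. A bar marks the median of the members detected in all samples, and the number without a Ct under 35 in all samples is in orange. Endothelial, epithelial, mesenchymal and leukocyte medians lie between 16.21 and 18.62. The stem cell and testis medians lie at 28.20 (8 of 12 assays) and 30.06 (6 of 21), with single points far to the left of their lists.

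Single miRNAs stood far from their own list. In the list of neuroendocrine, retinal and sensory miRNAs, with a median of 24.02, miR-211 had a mean of 14.40 ± 0.55 (SD, n = 3). Its mature sequence lies at chr7:64205831-64205852 on the plus strand, in an intron of the melanocyte gene Trpm1. Its relative miR-204 read 21.58, 22.12 and 22.01. As the sequences above show, both share the seed UCCCUUU and are the same at 21 of 22 bases, yet their assays were 7.50 cycles apart. miR-182 at 19.27 and miR-375, of neuroendocrine cells, at 19.88 were the other abundant ones of that list, and miR-7b was the last at 29.45.

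Of the 12 first-card assays for embryonic stem cell miRNAs, 7 were rare, 3 partly detected and 1 late only. The exception was miR-367, at 15.73, 16.35 and 16.42. It is made with miR-302a, b, c and d from 1 transcript at chr3:127545228-127545807 in pluripotent cells. miR-302b, the only 1 of the 4 measured outside the row G stretch, read 30.96, 28.72 and 30.72. miR-302d read 31.24, 18.13 and 29.62, miR-302a 22.74, 32.29 and 34.94, and miR-302c 22.90 in room air 1 and 40 in the others. In room air 2 and 3 together, then, only the 18.13 of miR-302d came near miR-367. miR-367 has the seed AUUGCAC of miR-92a, which stood 0.23 cycles later, but only 12 of 21 positions compared are the same.

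The X-linked miRNAs of the testis, which are made mostly in germ and Sertoli cells, were largely at late Ct values or not detected. Of 21 first-card assays, 7 never amplified, among them miR-201, miR-470, miR-742 and miR-871, 7 were partly detected, 1 was late only, miR-743a was moderate at 22.86 and 4 were rare, with miR-879 as the last at 32.82 ± 0.96 (SD, n = 3). miR-465a-5p stood apart at 16.75, 17.06 and 17.11. Its close relative miR-465b-5p, the same at 19 of 22 positions compared and with the same seed, read 28.96, 30.26 and 31.00, which is 13.10 cycles later. The other strand of its own hairpin, miR-465a-3p, stood at 30.30 ± 1.04. All of these lie in 1 cluster at chrX:66776757-66839125. Of 9 second-card assays of the list, 6 were rare, from miR-547 at 26.16 to miR-463 at 34.61, and 3 never amplified, miR-471 and both miR-880 assays.

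The imprinted Dlk1-Dio3 region on chromosome 12 carries a large miRNA cluster that is made from the maternal copy and is active in the fetus and newborn. Of its 76 assays on both cards, 50 had a RefSeq position, and all 50 lie on that chromosome. On the first card 8 of 51 were abundant, 21 moderate, 13 rare, 6 partly detected and 3 never amplified. Its median of 23.92 was later than that of the card. miR-496 was the lowest at 16.57, 16.79 and 16.60, followed by miR-411 at 18.10, miR-127 at 18.10 and miR-434-3p at 18.57. miR-127, which is antisense to Rtl1, read 18.16, 18.48 and 17.67. miR-380-3p was the last detected at 30.17 ± 0.24 (SD, n = 3), and rno-miR-543, miR-679 and miR-770-3p never amplified. Of 25 second-card assays none was abundant, miR-409-3p led at 22.11, miR-1197 was last at 32.38, and miR-376c, miR-433-5p and miR-882 never amplified. miR-376c had been abundant on the first card, at 19.31, 19.77 and 19.66.

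The rodent families miR-297, miR-466, miR-467 and miR-669, best known from an intron of Sfmbt2 on chromosome 2, had no abundant member among 11 first-card assays. They ran from miR-467b at 22.78 ± 0.40 to miR-297b-5p at 30.42 ± 0.75 (SD, n = 3). Of their 19 second-card assays 2 were abundant, miR-467f (17.33 and 19.43) and miR-467a (19.72 and 19.63), and miR-669o was the last detected in both at 28.75. Of these 30 assays 5 had a RefSeq position, and 0 of the 5 lie on chromosome 2. rno-miR-466b read 18.17 in room air 1 and 27.12 and 29.75 in the others.

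Both strands of 24 hairpins were detected on the first card, and 15 pairs differed by more than 3 cycles, with a median difference of 4.23. The 3p strand was far ahead in miR-142, by 7.44 ± 0.44 cycles (SD of the difference, n = 3), in miR-199a by 6.75 ± 0.46, in miR-342 by 6.74 ± 0.79 and in miR-434 by 5.89 ± 0.19. The 5p strand led in miR-125b by 9.46 ± 0.62, in miR-296 by 8.43 ± 1.14 and in miR-125a by 6.92 ± 0.43. These gaps were larger than the spread between samples. The 2 strands of miR-126 differed by 3.23 ± 0.55 cycles, and both ranked among the leading 10. Pairs such as miR-369 (0.08 ± 0.56) and miR-542 (0.16 ± 0.57) did not differ beyond their spread.

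The second card has 111 assays that name a minor strand. Of these, 3 were abundant (2.70%), 43 moderate, 43 rare and 11 never amplified (9.91%), whereas of the 264 other names 24 were abundant (9.09%) and 61 never amplified (23.1%). The difference between these shares was not tested. In 9 of 11 hairpins with both strands there, the unmarked strand had the lower Ct. miR-200c led its minor strand by 12.69 ± 0.09 cycles (SD of the difference, n = 2), miR-146b by 7.88 ± 0.02 and miR-200b by 7.73 ± 0.23. The miR-146b pair, like that of miR-196a, joins names of different species. In miR-322 the strand marked as minor was 0.98 ± 0.07 cycles ahead, and in miR-463 it was 1.95 ± 1.79 ahead at very late Ct values.

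The lowest Ct values of the second card belonged to assays with little studied miRNA names. Whether what they read is a miRNA was not tested. Of the 27 abundant second-card assays 6 had a RefSeq sequence, which was sought for mouse names only. miR-2134 read 10.49 and 9.49 in room air 2 and 3 (mean 9.99 ± 0.70, SD, n = 2) and miR-1897-5p 11.19 and 10.42, close to the U6 RNA of the card. miR-694 read 11.12 and 14.16, and miR-721 13.79 and 11.84. The 2 samples ordered these last ones oppositely. miR-1937b (14.45 ± 0.31) and miR-1937c (14.92 ± 0.45) followed. The 3p strand of miR-1897 stood 17.59 ± 0.64 cycles behind its 5p strand.

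Well-known lung miRNAs came next on that card. miR-223 read 15.28 and 14.97, miR-200c 15.35 and 14.94, and the other strands of miR-30 were close, miR-30a-3p at 15.84 and 15.89 and miR-30e-3p at 16.18 and 16.10. These 4, all assays with human names, had SDs of 0.03 to 0.29 cycles. miR-1961 (15.51 ± 0.73, SD, n = 2), miR-1904 (16.36 ± 1.61), miR-2138 (16.62 ± 2.33), miR-1903 (16.93 ± 2.16) and miR-1951 (16.94 ± 1.37) completed the leading 15 with larger SDs. Of the 15, 13 overlapped the next in rank.

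**Figure D5:**
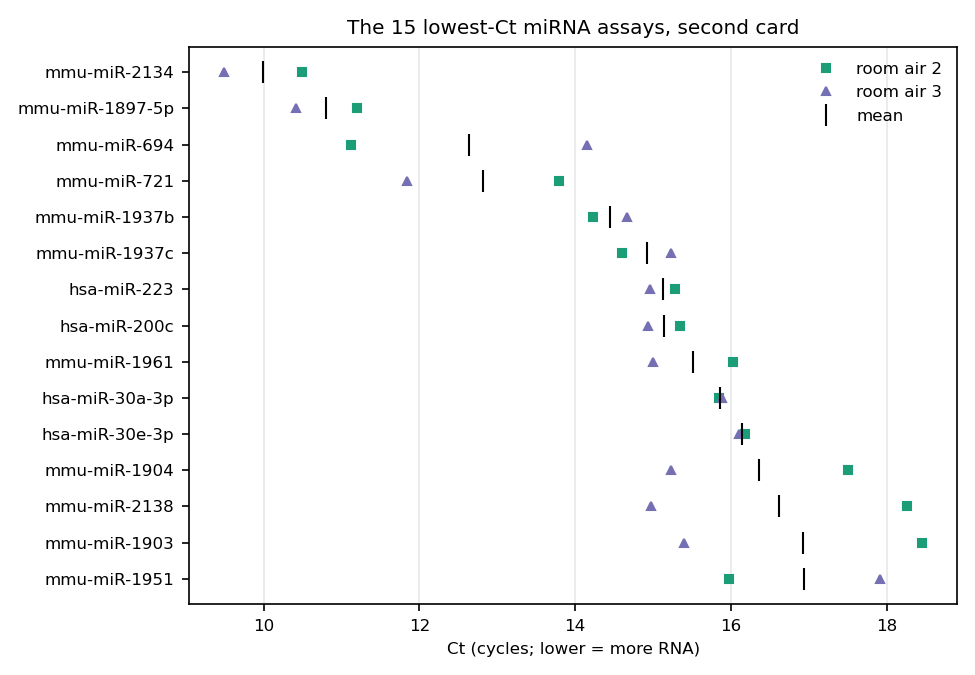
Ct in cycles of the 15 second-card miRNA assays with the lowest mean in room air 2 (squares) and room air 3 (triangles), with a bar at the mean (n = 2). miR-223, miR-200c, miR-30a-3p and miR-30e-3p lie within 0.5 cycles between samples, while miR-694, miR-2138 and miR-1903 lie about 3 cycles apart.

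Names of the second card call for care. Of its assay names, 105 carry an assay number, and all 105 match the number listed 3 wells later, so that the number column is displaced against the names. The names were used, since by them the U6 wells read 9.52 to 9.65 in room air 2 and 3 and the plant ath-miR159a 40. There were 43 pairs of assays with the same name on both cards after the species prefix was removed. Many of these pairs set a mouse assay beside a rat or human one. Of the 43, 28 were detected in every sample used on both cards, and were compared in room air 2 and 3. These 28 differed by a median of 2.67 cycles, 13 of them by less than 2 and 7 by more than 5, and 19 of the 43 fell into the same band. miR-146b, miR-200b, miR-214 and miR-455, each with a mouse name on the first card and a rat or human one on the second, lay within 0.43 cycles. miR-494 (23.21 and 30.21), miR-425 (18.13 and 25.63) and miR-322 (27.79 and 20.06) were far apart, and miR-376c went from 19.71 to 40. Of these, only miR-425 had a human name on the second card, and the others had mouse names on both. A level of the second card thus holds for the assay as named and less surely for the miRNA.

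Some miRNAs gave a strong signal in 1 sample and none in another. Of the 41 partly detected first-card assays, 29 were seen in 1 sample and 12 in 2, and the Ct was under 30 in at least 1 sample for 12 of the 29 and 7 of the 12. The lowest were miR-743b-3p (18.36, 24.54 and 40), miR-670 (40, 40 and 19.01) and miR-448 (19.09, 21.28 and 39.20). From the second card, rno-miR-653 read 13.59 in room air 2 and 36.46 in room air 3, and miR-470# read 40 and 16.25. Such values lie far outside the usual spread between samples, and no level can be given for these miRNAs.

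The 37 first-card assays that stayed at 40 in all 3 samples included miR-188-3p, miR-18b, miR-201, miR-202-5p and miR-216a, the first in name order, and 10 of them were rat sequences. miR-202 is known from gonads and miR-216a from the exocrine pancreas. Both strands of miR-615 and of miR-876 were among them. Of 40 first-card assays with a rat name 10 never amplified and none was abundant, while of 335 mouse names 27 never amplified and 100 were abundant. On the second card the never amplified shares of rat and mouse names were close, with 9 of 38 rat names (23.7%) and 57 of 261 mouse names (21.8%). The share was lower for human names, with 6 of 76 (7.9%), a difference that was not tested. The second card had 72 that never amplified, among them miR-290, miR-291b-3p and miR-292-5p of embryonic stem cells. Of the 7 second-card assays of that list 4 never amplified. The others were miR-292-3p, moderate at 25.02 and 24.55 in room air 2 and 3, miR-290-5p, rare at 33.01 and 22.48, and rno-miR-293, at 25.57 and 40. With a Ct of 40 in 2 or 3 wells after 12 cycles of pre-amplification, a level below the reach of the assay cannot be told from absence.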

How the data were processed

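MiRNAs were read by RT-PCR in 3 room air lung samples with 2 cards per sample. The authors deposited 1 table with a Ct value per well and sample, of which the room air columns were used; per the file headers the values are Ct, with 40 for a well that did not amplify. Instrument and analysis software are not given in the sources used here. The Ct values were used as deposited, with no reference subtracted. Depth is the number of assays under a Ct of 35, and the number of samples limits the precision. Mean, SD, bands and ranks were computed with Python 3.11.15, pandas 2.3.3 and numpy 2.4.6, figures were drawn with matplotlib 3.10.9, and the banding was tested on simulated data. No test between groups was made. Named were the 25 lowest first-card and 15 lowest second-card assays, the lowest and highest detected member of each list with up to 4 never amplified, the 5 largest SDs per card and 5 assays on each side of 20. Other members are named where a list calls for it and were chosen after their values were seen. The lists (miRNA families, genomic clusters and cell type markers, from general knowledge) and the scope were chosen with earlier results of these data known. Sequences and positions are from RefSeq, GRCm38.p6. Other band edges, ceilings, averages and samples were tried.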

Additional observations from a re-analysis of the deposited data

How the results depend on the processing

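Of 138 recomputed band counts 127 stayed within 1.5 times the value given, and of 198 list medians 186 moved by less than their SD between samples. Of 200 mean Ct values of leading assays 195 did, mostly by construction. Leaving out 1 sample cannot move a mean by its SD, so all 105 such values stayed. Shifting the samples to a common mean and a ceiling of 32 could not move these means either. Only keeping room air 1 on the second card could, and it moved 5. Part of the band counts and list medians was fixed as well. Other edges, or the median over samples, cannot change the partly detected, late only and never amplified counts. On the second card the median of 2 samples is their mean. Shifting to a common mean cannot move a list median. Leaving out 1 sample cannot move the median of a list with 1 member by its SD. The abundant count of the first card ran from 73 (edges 19 and 25) to 119 (edges 21 and 27), and that of the second from 22 to 34. The counts that moved more are those of the thin bands. Late only assays numbered 15 on the first and 21 on the second card with a ceiling of 32, and 0 and 1 with a ceiling of 38, by construction. Without 1 replicate, partly detected first-card assays numbered 24 to 32 and late only ones 2 to 5. On the second card, leaving out either sample, or asking for detection in 1 sample only, gave 0 partly detected assays by construction, and keeping room air 1 gave 45. Leaving room air 1 out of plate row G, wells 12 to 24, an alternative chosen after the data were seen, gave 99 abundant, 124 moderate and 71 rare first-card assays. Of the 25 leading first-card assays, 23 to 25 stayed in the lead without 1 replicate, and of the 15 of the second card 12 to 14. With room air 1 kept on the second card, the means of miR-1937b, miR-1937c and miR-223 fell to 13.94, 14.38 and 14.47 and those of miR-30a-3p and miR-30e-3p rose to 16.12 and 16.44. Names taken from the displaced number column gave 31 abundant and 71 never amplified second-card assays. No paired analysis was possible because no groups were compared and no test was made. The median SD was 0.68 cycles in the rare band of the first card, and the number of samples limits the precision.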

Other observations

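Several first-card miRNAs had both a mouse and a rat assay, or a repeated one. Of 17 such pairs 8 were detected by both assays in all 3 samples, and 5 of the 8 lay within 1 cycle. miR-351 stood at 20.33 and 20.42 and miR-224, a miRNA of the Gabre gene, at 23.05 and 22.58. miR-1 stood at 23.94 and 24.76. miR-207 (25.63 by the mouse and 21.31 by the rat assay) and miR-381 (28.38 and 24.18) lay more than 4 cycles apart. miR-346 and miR-742 never amplified with either assay. miR-543, of the Dlk1-Dio3 cluster, stood at 25.58 by the mouse assay and at 40 in all 3 samples by the rat one. miR-377 read 22.81 in room air 3 and 40 in both others by the rat assay, whereas the mouse assay had its low value, 18.29, in room air 1.

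Among clustered hairpins, the 3 miRNAs at chr5:138165321-138165818 were close, with miR-106b at 18.31, miR-93 at 19.24 and miR-25 at 20.98. The cluster at chrX:53047997-53054349, with miR-503 at 20.16 as its lowest member, held 6 assays up to a Ct of 29.35. The sensory cluster at chr6:30165918-30169737 ran from miR-182 at 19.27 through miR-183 to miR-96 at 26.59.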
